A study of Mus musculus with 12 samples.

Results

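The matrix metalloproteases (MMPs), the ADAM and ADAMTS metalloproteases and the tissue inhibitors of metalloproteases (TIMPs) were followed in mouse satellite cells, the stem cells of skeletal muscle, at 4 stages of life. Members were all genes whose symbol is Mmp, Timp, Adam or Adamts followed directly by a digit, on a probe set with exactly 1 symbol, with the brightest probe set standing for the gene. They numbered 78 of the 19938 genes measured, and comprised 22 MMPs, 4 TIMPs, 34 ADAMs and 18 ADAMTS genes. Adamts2 and Mmp15 were not analysed here. Of the 78 members, 40 had no stage mean of 6 or more on the log2 scale and are called dim (51.3%, against 35.9% of all genes). The highest stage means just inside this limit were 5.79 for Adamts13, 5.82 for Adam11 and 5.84 for Mmp17, and those just above it were 6.07 for Mmp9, 6.14 for Adam8 and 6.15 for Mmp23.

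MMPs are zinc proteases that are made as inactive zymogens and cut collagens, gelatin, proteoglycans and other proteins around cells, either after secretion or while anchored in the plasma membrane. ADAMs sit in the membrane and shed the outer parts of ligands and receptors, and some have lost the catalytic site and act as adhesion partners, whereas ADAMTS enzymes are secreted and process procollagen, large proteoglycans such as versican, and microfibrils. TIMPs are secreted inhibitors that plug the active sites of these enzymes. In muscle, satellite cells lie against a basement membrane, and members of these families take part in its remodelling, in migration and in cell fusion.

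The mice were heterozygous for a Pax7-ZsGreen reporter, which marks cells expressing the satellite cell transcription factor Pax7, and their strain is given as C57BL/6. Every group carried the reporter, and the negative control for sorting was muscle of wild type SV129 mice. The groups were fetal (E17.5, forelimbs and hindlimbs, 4 mice), adolescent (postnatal day 21, hindlimbs, 6 mice), adult (2 to 3 months, hindlimbs, 8 mice) and aged (over 1 year, hindlimbs, 8 mice), so limb and age cannot be told apart in comparisons with the fetal stage. Muscle was digested with collagenase and dispase before fluorescent cells were sorted and pooled. Each stage had 3 arrays, 12 in all. The labels do not say that these came from different pools of animals, and p-values therefore measure the spread between these arrays only, which may be technical.

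The 15 satellite cell markers checked, Pax7 among them, were all above the limit for dim genes, and were not level across the stages. Of them 12 rose and 0 fell in adolescent against fetal cells, and 13 rose and 1 fell in adult against fetal cells, with median differences of 0.78 and 1.14. Their summed level (log2 of the sum of linear values) was 13.52 to 13.62 on the fetal arrays, 14.28 to 14.40 on the adolescent arrays, 14.57 to 14.66 on the adult arrays and 14.56 to 14.64 on the aged arrays, and their part in rises such as those of Timp2, Mmp2, Adamts5 and Adamts10 was not tested. Array medians lay between 6.13 and 6.29, the small number of arrays sets the precision, and arrays of one stage correlated at 0.972 to 0.999 across genes. Adult replicate 1 stood apart from the other adult arrays: the mean of 14 cell cycle genes was 8.05 on it, against 6.05 and 6.06 on adult replicates 2 and 3. The background also differed between arrays. Probe sets for olfactory and vomeronasal receptors, which satellite cells are not known to use, averaged 4.47 and 4.50 on adult replicates 2 and 3 and 4.31 on aged replicate 1, against 3.79 to 3.91 on the other arrays. The value that 1 in 20 of these probe sets exceeded on an array is called its receptor level. A gene at or below it on every array of a stage has only a bound there, and its fold is then given as at least the ratio of the higher stage's mean to, per array, the receptor level or the gene's own value, whichever is higher. The results below were therefore also computed without these arrays.

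Promoter windows of 300 bases, from 250 before to 50 after each annotated start, were taken from RefSeq (GRCm38.p6) for 48 of the 78 members, which had 53 windows. Shown first are those of the TIMPs, all of which differed among the stages, then 2 genes of the MMP cluster on chromosome 9 (Mmp3, stromelysin 1, and Mmp13, collagenase 3), none of whose genes were above the limit for dim genes, and last 2 proteases with large falls across the stages, Adam19 and Adamts14. Sequences run 5′ to 3′ on the gene's strand. Capitals mark the AP-1 motif TGANTCA, the TATA box TATAAA and the GC box GGGCGG, each searched on both strands, and neighbouring GC boxes may overlap.
Timp1 (chrX:20869916-20870215, plus strand): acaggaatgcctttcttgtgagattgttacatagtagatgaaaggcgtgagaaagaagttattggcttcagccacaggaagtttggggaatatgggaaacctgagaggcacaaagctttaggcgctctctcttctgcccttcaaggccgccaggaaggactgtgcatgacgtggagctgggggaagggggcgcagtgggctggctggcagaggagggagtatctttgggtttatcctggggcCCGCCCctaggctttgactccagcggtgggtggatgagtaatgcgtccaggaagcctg
Timp2 (chr11:118355362-118355661, minus strand): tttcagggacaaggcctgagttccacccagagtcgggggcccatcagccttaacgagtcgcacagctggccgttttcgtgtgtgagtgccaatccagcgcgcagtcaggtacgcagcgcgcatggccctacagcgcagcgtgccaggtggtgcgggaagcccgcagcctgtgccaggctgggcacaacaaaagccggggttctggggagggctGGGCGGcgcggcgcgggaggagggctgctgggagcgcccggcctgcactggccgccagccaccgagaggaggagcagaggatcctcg
Timp3 (chr10:86300162-86300461, plus strand): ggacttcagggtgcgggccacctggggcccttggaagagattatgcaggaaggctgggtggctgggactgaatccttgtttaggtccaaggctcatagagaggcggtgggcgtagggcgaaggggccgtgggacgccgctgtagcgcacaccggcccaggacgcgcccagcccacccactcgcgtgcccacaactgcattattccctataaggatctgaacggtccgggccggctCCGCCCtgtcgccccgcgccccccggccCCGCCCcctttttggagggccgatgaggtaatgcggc
Timp4 (chr6:115252156-115252455, minus strand): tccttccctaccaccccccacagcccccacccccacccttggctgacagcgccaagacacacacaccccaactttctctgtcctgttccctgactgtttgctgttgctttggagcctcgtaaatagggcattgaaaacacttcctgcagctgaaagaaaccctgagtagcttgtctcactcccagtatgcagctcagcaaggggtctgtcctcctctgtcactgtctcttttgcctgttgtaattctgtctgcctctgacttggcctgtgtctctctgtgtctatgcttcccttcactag
Mmp3 (chr9:7445572-7445871, plus strand): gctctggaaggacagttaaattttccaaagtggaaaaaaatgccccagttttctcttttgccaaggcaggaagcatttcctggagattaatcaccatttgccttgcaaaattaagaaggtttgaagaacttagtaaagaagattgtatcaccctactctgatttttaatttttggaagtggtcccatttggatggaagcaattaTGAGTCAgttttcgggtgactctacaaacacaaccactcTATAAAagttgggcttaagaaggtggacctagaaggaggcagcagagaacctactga
Mmp13 (chr9:7272264-7272563, plus strand): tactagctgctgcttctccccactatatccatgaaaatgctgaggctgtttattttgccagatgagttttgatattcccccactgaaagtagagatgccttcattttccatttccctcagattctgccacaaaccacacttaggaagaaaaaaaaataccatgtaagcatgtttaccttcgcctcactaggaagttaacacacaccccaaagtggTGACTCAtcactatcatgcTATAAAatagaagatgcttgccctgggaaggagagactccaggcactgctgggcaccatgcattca
Adam19 (chr11:46055734-46056033, plus strand): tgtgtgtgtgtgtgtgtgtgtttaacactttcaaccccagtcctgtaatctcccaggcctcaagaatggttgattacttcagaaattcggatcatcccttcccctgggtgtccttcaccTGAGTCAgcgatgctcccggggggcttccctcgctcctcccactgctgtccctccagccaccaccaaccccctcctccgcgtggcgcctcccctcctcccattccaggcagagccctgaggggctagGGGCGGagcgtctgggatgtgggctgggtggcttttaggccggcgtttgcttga
Adamts14 (chr10:61273370-61273669, minus strand): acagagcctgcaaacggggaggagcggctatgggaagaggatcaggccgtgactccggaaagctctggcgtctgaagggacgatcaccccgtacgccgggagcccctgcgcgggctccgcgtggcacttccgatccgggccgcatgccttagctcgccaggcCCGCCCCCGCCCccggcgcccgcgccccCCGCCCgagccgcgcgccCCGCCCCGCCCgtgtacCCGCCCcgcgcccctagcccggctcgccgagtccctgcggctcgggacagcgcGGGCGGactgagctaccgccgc

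The AP-1 motif was present in 13 of the 53 member windows (24.5%), against 7.81% of all 32851 windows, and the TATA box in 15 (28.3%), against 13.6%. The GC box was found in 21 (39.6%), against 35.7%. The dim members held most of the AP-1 and TATA matches: of their 27 windows 12 had an AP-1 motif, 14 a TATA box and 4 a GC box, whereas of the 26 windows of the other members 1 had an AP-1 motif, 1 a TATA box and 17 a GC box. The single AP-1 match among the other members was the Adam19 window shown above. Only 23 of the 38 members that were not dim had a window. Mmp2, Mmp9, Mmp16, Mmp19, Adam9, Adam12, Adamts4, Adamts5, Adamts8 and Adamts10 were among those without one, and their promoters were not searched. Adam19 had 3 windows, of which this one was chosen for its motifs, and the other two held none of the 3 motifs. Neither AP-1 nor TATA letters occurred in the 4 TIMP windows shown. The MMP genes of chromosome 9 lie close together. Their 12 windows, of 10 genes (Mmp1a, Mmp1b, Mmp3, Mmp7, Mmp8, Mmp10, Mmp12, Mmp13, Mmp20 and Mmp27), fell between positions 7272264 and 7692390. AP-1 and TATA motifs stood together in 8 of these windows, as in the Mmp3 and Mmp13 sequences above, against 1.54% of all windows, and none had a GC box. A match in these windows is a description of letters and not a measured binding site.

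All 4 TIMPs were above the limit for dim genes, and their courses over the stages were not all alike. Timp3 and Timp4 rose, fell and rose in the same steps. In pooled sorted cells, fewer cells of a type and less RNA per cell cannot be told apart, here and for all levels that follow. Values are log2, differences are given with their standard error, and a gene is said to have risen or fallen only at an adjusted p under 0.05 in limma's fit of 3 arrays per stage. Timp1, an inhibitor that is secreted by many cells and induced by growth factors, stood at 7.68, 7.97 and 8.06 on the fetal arrays, 6.46, 6.10 and 6.09 on the adolescent arrays, 5.90, 5.80 and 5.81 on the adult arrays and 6.50, 5.31 and 5.51 on the aged arrays. All 3 fetal arrays lay above all others, and aged replicate 1 lay about level with adolescent replicate 1 and above the other aged arrays. Timp1 fell by 1.69 ± 0.24 in adolescent against fetal cells (3.22-fold, adjusted p = 0.000249) and fell by 2.07 ± 0.24 in adult against fetal cells (adjusted p = 2.26e-05). Of the adult arrays only replicate 1 had Timp1 above the receptor level, and no fold is given there. Timp2, which inhibits MMPs and also takes part in the activation of pro-MMP2 by MMP14, stood at 9.78, 9.53 and 9.53 on the fetal arrays, 10.62, 10.53 and 10.54 on the adolescent arrays, 10.94, 10.51 and 10.57 on the adult arrays and 10.78, 10.84 and 10.86 on the aged arrays. The fetal arrays lay below every later array, and the adult and adolescent arrays overlapped. Timp2 rose by 0.95 ± 0.12 in adolescent against fetal cells (adjusted p = 8.76e-05) and by 1.06 ± 0.12 in adult against fetal cells (adjusted p = 1.74e-05).

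Timp3, a matrix-bound inhibitor whose range includes ADAM17 and the ADAMTS proteoglycanases, stood at 8.93, 8.83 and 8.93 on the fetal arrays, 9.66, 9.26 and 9.33 on the adolescent arrays, 9.17, 8.93 and 9.0 on the adult arrays and 10.03, 10.16 and 10.05 on the aged arrays. Aged arrays lay above every other array, and the adult arrays partly overlapped the fetal ones. Timp3 rose by 1.04 ± 0.12 in aged against adult cells (2.06-fold, adjusted p = 0.000577), after it rose by 0.52 ± 0.12 in adolescent against fetal cells and fell by 0.38 ± 0.12 in adult against adolescent cells. The adolescent arrays differed among themselves, and the fall in adult cells (adjusted p = 0.0362) did not pass without adolescent replicate 1 or 3 or without adult replicate 2 or 3. Timp4, an inhibitor known from heart, brain and muscle, stood at 5.54, 5.71 and 5.58 on the fetal arrays, 9.54, 8.71 and 8.68 on the adolescent arrays, 8.23, 7.89 and 7.96 on the adult arrays and 9.13, 9.59 and 9.58 on the aged arrays. The fetal arrays were below the limit for dim genes and every later array was above it, with adult arrays lowest among the postnatal ones and no overlap between adult and aged arrays. Timp4 rose by 3.37 ± 0.21 in adolescent against fetal cells (10.3-fold, adjusted p = 1.84e-07), the widest difference of any member in the comparisons made. Its fetal values lay just above the receptor level of those arrays (5.37, 5.46 and 5.34), so its folds against fetal cells rest on values near background. Timp4 fell by 0.95 ± 0.21 in adult against adolescent cells (adjusted p = 0.00764) and rose by 1.41 ± 0.21 in aged against adult cells (2.65-fold, adjusted p = 0.00298). Its fall in adult cells did not pass without adult replicates 2 and 3 and aged replicate 1 together.

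Markers of endothelial cells moved alongside Timp3 and Timp4. The 16 endothelial genes checked, none of them dim, had a summed level of 11.04 to 11.82 on the fetal arrays, 12.41 to 12.97 on the adolescent arrays, 11.85 to 11.94 on the adult arrays and 12.59 to 13.12 on the aged arrays. Of the endothelial genes 13 rose and 0 fell in adolescent against fetal cells, 0 rose and 7 fell in adult against adolescent cells, and 10 rose and 0 fell in aged against adult cells. Of 12 pericyte and smooth muscle markers, 1 of them dim, 7 rose and 1 fell in adolescent against fetal cells, 1 rose and 4 fell in adult against adolescent cells, and 3 rose and 0 fell in aged against adult cells. Their summed level was 12.37 to 12.46 on the fetal arrays, 12.88 to 12.99 on the adolescent arrays, 12.62 to 12.73 on the adult arrays and 12.81 to 12.94 on the aged arrays. The part of either cell type in the values of Timp3 and Timp4 was not tested. In adult against fetal cells 4 of the 16 endothelial genes rose and 0 fell. Of the 12 pericyte and smooth muscle markers 8 rose and 2 fell there, where 42.5% of all genes passed. Timp4 rose by 2.42 ± 0.21 in that comparison (5.34-fold, adjusted p = 1.65e-06).

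**Figure D1:**
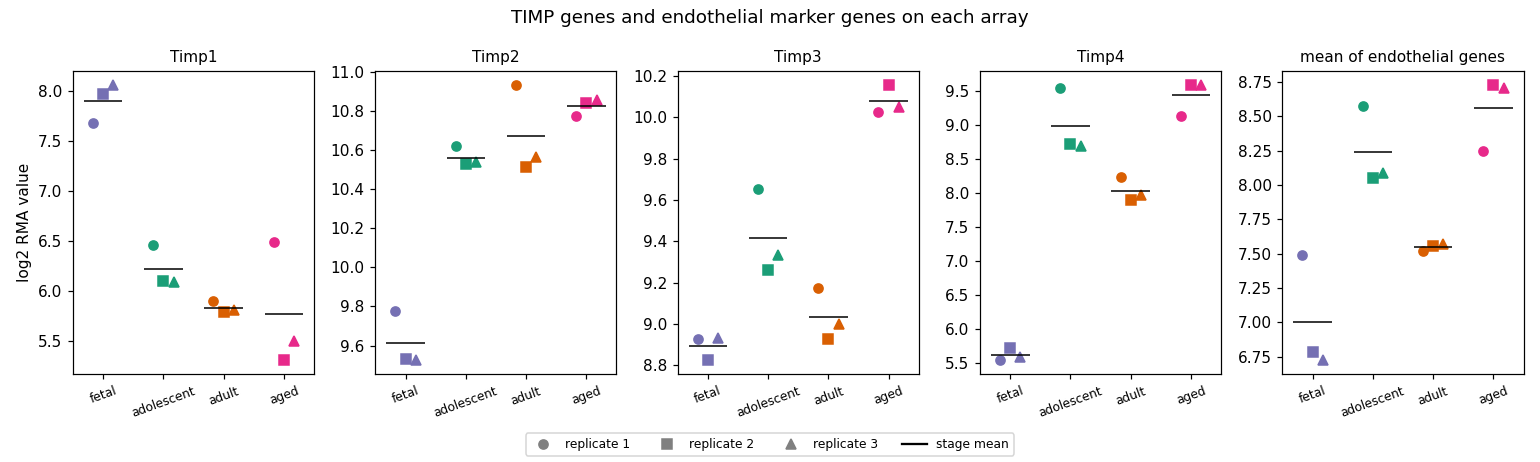
Log2 RMA values of Timp1, Timp2, Timp3 and Timp4 and the mean of 16 endothelial marker genes on each of the 12 arrays by stage, with 1 symbol per replicate, a line at each stage mean and a separate vertical scale in each panel. Timp1 is high on the fetal arrays only, Timp4 lies between 5.54 and 5.71 on the fetal arrays and between 7.89 and 9.59 on the later ones, and the endothelial mean is higher on the adolescent and aged arrays than on the other arrays.

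Among the secreted MMPs the gelatinases moved in opposite directions. Mmp2, gelatinase A, which cuts denatured collagen and basement membrane collagen, stood at 10.05, 9.92 and 9.92 on the fetal arrays, 10.84, 11.41 and 11.42 on the adolescent arrays, 10.84, 10.90 and 10.96 on the adult arrays and 10.79, 10.93 and 10.90 on the aged arrays. Every later array lay above the fetal arrays, and adolescent replicate 1 lay with the adult and aged arrays and below the other adolescent ones. Mmp2 rose by 1.26 ± 0.14 in adolescent against fetal cells (2.39-fold, adjusted p = 2.65e-05) and by 0.93 ± 0.14 in adult against fetal cells. Mmp9, gelatinase B, a product of leukocytes as well as of other cells, stood at 6.44, 5.87 and 5.89 on the fetal arrays, 5.39, 5.39 and 5.53 on the adolescent arrays, 5.42, 5.43 and 5.63 on the adult arrays and 5.55, 5.40 and 5.58 on the aged arrays. It was near the limit for dim genes throughout, and the fetal stage was the only one with a mean above 6, through fetal replicate 1. Mmp9 fell by 0.63 ± 0.14 in adolescent against fetal cells (adjusted p = 0.00662) and fell by 0.58 ± 0.14 in adult against fetal cells. Of the adolescent arrays only replicate 3, and of the adult arrays only replicate 1, had it above the receptor level. All 11 neutrophil markers checked were dim, as were 5 of 15 macrophage markers. Of the macrophage markers 1 rose and 1 fell in adolescent against fetal cells, where 18.8% of all genes passed. Their summed level was 10.25 to 10.33 on the fetal, 10.33 to 10.81 on the adolescent, 10.12 to 10.72 on the adult and 10.36 to 11.215 on the aged arrays. Mast cell markers, given below, stood higher in fetal cells. The part of these cells in the Mmp9 values was not tested. Mmp19, a secreted MMP of broad specificity, stood at 5.31, 5.10 and 5.06 on the fetal arrays, 5.56, 5.59 and 5.70 on the adolescent arrays, 5.96, 5.93 and 6.11 on the adult arrays and 6.47, 6.53 and 6.54 on the aged arrays. Its groups did not overlap in any neighbouring pair of stages, in each case with the later stage higher. It rose by 0.46 ± 0.10 in adolescent against fetal, by 0.38 ± 0.10 in adult against adolescent and by 0.51 ± 0.10 in aged against adult cells (adjusted p = 0.0137). It was at or below the receptor level on all 3 fetal arrays, so its adolescent level was at least 1.17-fold the fetal one, and also on adult replicates 2 and 3. The adult step did not pass without adolescent replicate 1 or 2 or adult replicate 3. That step was also lost after repeated quantile normalization, after median centring of the arrays and in a fit of its stages alone. The aged step did not pass without adult replicate 2 or aged replicate 2 or 3, nor in a fit of its stages alone.

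Of the membrane-type MMPs, Mmp17, Mmp24 and Mmp25 were dim, and Mmp16 was above the limit for dim genes through the fetal stage alone. Mmp14, which cuts collagen at the cell surface and activates pro-MMP2, stood at 8.79, 8.62 and 8.65 on the fetal arrays, 8.41, 8.28 and 8.38 on the adolescent arrays, 8.06, 7.94 and 7.97 on the adult arrays and 8.18, 7.94 and 8.13 on the aged arrays. The fetal arrays were highest and the adult and aged arrays overlapped. Mmp14 fell by 0.69 ± 0.10 in adult against fetal cells (adjusted p = 9.84e-05), and in the steps between it fell by 0.33 ± 0.10 in adolescent against fetal cells and fell by 0.36 ± 0.10 in adult against adolescent cells. The adolescent step (adjusted p = 0.0304) was lost whichever fetal or adolescent array was left out, and the adult step (adjusted p = 0.0207) was lost without adolescent replicate 1 or 3 or adult replicate 2 or 3. Mmp16, another membrane-anchored MMP, stood at 7.23, 6.77 and 6.87 on the fetal arrays, 4.94, 4.95 and 4.99 on the adolescent arrays, 4.72, 5.05 and 5.01 on the adult arrays and 4.79, 4.92 and 4.71 on the aged arrays. It was above 6 on the fetal arrays alone, and on every later array it lay between 4.71 and 5.05, not above the receptor level. Mmp16 fell by 2.00 ± 0.13 in adolescent against fetal cells (at least 2.82-fold, adjusted p = 2.86e-07) and fell by 2.03 ± 0.13 in adult against fetal cells (at least 2.11-fold, adjusted p = 1.28e-07). Mmp11, stromelysin 3, had stage means of 7.93, 7.62, 7.39 and 7.60 from fetal to aged and fell by 0.55 ± 0.16 in adult against fetal cells (adjusted p = 0.0147), a call lost without adult replicate 2 or 3. Mmp23 and Mmp28 passed no test among the stages.

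Among the ADAMs with a catalytic site, Adam9, Adam10, Adam12, Adam17 and Adam19 were lower in adult than in adolescent cells. Adam10, the main sheddase of Notch receptors and of several adhesion proteins, stood at 9.20, 9.11 and 9.14 on the fetal arrays, 9.35, 9.19 and 9.30 on the adolescent arrays, 9.10, 8.58 and 8.40 on the adult arrays and 8.82, 9.13 and 9.0 on the aged arrays. Adult replicates 2 and 3 lay below every other array, while adult replicate 1 lay close to the fetal ones. Adam10 fell by 0.59 ± 0.15 in adult against adolescent cells (adjusted p = 0.0188) and fell by 0.46 ± 0.15 in adult against fetal cells (adjusted p = 0.0302). Against adolescent cells it fell by 0.79 without adult replicate 1 and fell by 0.18, with the call lost, without adult replicates 2 and 3 and aged replicate 1. The call was lost as well without adolescent replicate 1 or 3 or without adult replicate 2 or 3 alone, and the call against fetal cells was lost whichever fetal array, or whichever of adult replicates 2 and 3, was left out. Adam17, which releases TNF and EGF receptor ligands, stood at 8.77, 8.86 and 8.91 on the fetal arrays, 9.09, 9.14 and 9.15 on the adolescent arrays, 8.47, 8.32 and 8.39 on the adult arrays and 8.22, 8.61 and 8.59 on the aged arrays. Its adolescent arrays lay above all others, and the adult and aged arrays overlapped. Adam17 fell by 0.73 ± 0.11 in adult against adolescent (adjusted p = 0.000965) and fell by 0.45 ± 0.11 in adult against fetal cells. Adam9, a widely expressed member, had stage means of 8.98, 9.22, 8.48 and 8.51 from fetal to aged and fell by 0.74 ± 0.12 in adult against adolescent cells (adjusted p = 0.00118).

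Adam12 and Adam19 are the meltrins alpha and beta, and Adam12 is known in mouse from regenerating muscle and myoblast fusion. Adam12 stood at 7.23, 7.28 and 7.45 on the fetal arrays, 7.53, 7.51 and 7.48 on the adolescent arrays, 6.81, 6.12 and 6.20 on the adult arrays and 5.99, 5.73 and 5.78 on the aged arrays. Fetal and adolescent arrays were above all adult arrays, and adult replicate 1 lay above the other adult ones. Adam12 fell by 1.13 ± 0.16 in adult against adolescent cells (2.19-fold, adjusted p = 0.000552) and fell by 0.94 ± 0.16 in adult against fetal cells, with adult replicate 2 not above the receptor level. Without adult replicate 1 it also passed in aged against adult cells, where it fell by 0.33. Adam19, which can process neuregulin and is needed for heart development in mouse, stood at 9.22, 9.52 and 9.52 on the fetal arrays, 8.59, 8.14 and 8.27 on the adolescent arrays, 7.31, 7.17 and 7.08 on the adult arrays and 7.09, 7.12 and 7.10 on the aged arrays. Fetal, adolescent and adult groups did not overlap, each later one being lower, and the aged arrays lay within the adult range. Adam19 fell by 1.09 ± 0.13 in adolescent against fetal cells, fell by 1.15 ± 0.13 in adult against adolescent cells (adjusted p = 0.000194) and fell by 2.23 ± 0.13 in adult against fetal cells (4.71-fold, adjusted p = 4.81e-08). The last was the widest difference of any member in that comparison after Timp4.

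Adam15, which binds integrins through a disintegrin domain, stood at 7.18, 7.14 and 7.09 on the fetal arrays, 7.88, 7.74 and 7.75 on the adolescent arrays, 7.46, 7.78 and 7.88 on the adult arrays and 8.12, 8.16 and 8.20 on the aged arrays. Fetal arrays were lowest and aged arrays highest. It rose by 0.65 ± 0.11 in adolescent against fetal cells (adjusted p = 0.000945) and by 0.45 ± 0.11 in aged against adult cells (adjusted p = 0.0427). The aged call was lost without adult replicate 2 or without aged replicate 2 or 3. Adam22 and Adam23 lack a catalytic site and bind LGI proteins in the nervous system, and they moved apart. Adam22 stood at 5.49, 4.96 and 5.29 on the fetal arrays, 5.68, 5.61 and 5.58 on the adolescent arrays, 5.98, 5.75 and 5.73 on the adult arrays and 6.37, 7.08 and 6.91 on the aged arrays, with every aged array above every other one. It rose by 0.96 ± 0.18 in aged against adult cells (adjusted p = 0.0108), a call lost without aged replicate 2 or 3, and rose by 0.58 ± 0.18 in adult against fetal cells, a call lost without fetal replicate 2. It was above the receptor level on 1 of the 3 fetal and 1 of the 3 adult arrays. Adam23 stood at 7.09, 6.94 and 7.04 on the fetal arrays, 6.04, 5.88 and 5.89 on the adolescent arrays, 5.50, 5.69 and 5.60 on the adult arrays and 5.67, 5.99 and 5.78 on the aged arrays, with the fetal arrays above all others. It fell by 1.09 ± 0.11 in adolescent against fetal cells (adjusted p = 9.61e-06) and fell by 1.43 ± 0.11 in adult against fetal cells, with 1 of the 3 adult arrays above the receptor level. It also fell by 0.34 ± 0.11 in adult against adolescent cells (adjusted p = 0.0415), a call that did not pass with replicate number as a block (adjusted p = 0.0682), nor without any single adolescent array or adult replicate 2 or 3. Of the remaining ADAMs above the limit, Adam1a, an ADAM of mouse sperm, differed among the stages (stage means 6.30, 6.32, 6.47 and 6.94, F-test adjusted p = 0.0036), Adam4 rose by 0.61 ± 0.20 in adult against adolescent cells (adjusted p = 0.0473, lost without any single adolescent array or adult replicate 2 or 3), and Adam8 and Adam33 passed no test.

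The ADAMTS proteoglycanases, which cut versican and aggrecan, split into rising and falling members. Adamts1 stood at 8.87, 8.93 and 8.99 on the fetal arrays, 9.69, 9.43 and 9.44 on the adolescent arrays, 9.84, 9.74 and 9.79 on the adult arrays and 10.13, 10.28 and 10.18 on the aged arrays. Fetal arrays were lowest and aged arrays highest, and no stage overlapped another. It rose by 0.59 ± 0.10 in adolescent against fetal cells (adjusted p = 0.000745), by 0.86 ± 0.10 in adult against fetal cells and by 0.40 ± 0.10 in aged against adult cells (adjusted p = 0.042). The aged call was lost without adult replicate 2 or 3 and without aged replicate 2 or 3, and the endothelial markers given above rose in the same comparison, a part not tested. Adamts5 stood at 9.07, 8.91 and 8.90 on the fetal arrays, 9.68, 9.53 and 9.57 on the adolescent arrays, 10.05, 10.02 and 9.96 on the adult arrays and 9.97, 10.49 and 10.41 on the aged arrays. Fetal, adolescent and adult groups did not overlap, each later one being higher. It rose by 0.63 ± 0.13 in adolescent against fetal cells and by 1.05 ± 0.13 in adult against fetal cells (adjusted p = 3.07e-05). Its rise of 0.42 ± 0.13 in adult against adolescent cells (adjusted p = 0.0369) did not pass with replicate number as a block (adjusted p = 0.0637), nor without any single adolescent array or adult replicate 2 or 3. Adamts8 moved the other way and stood at 8.33, 8.41 and 8.35 on the fetal arrays, 7.92, 8.00 and 8.04 on the adolescent arrays, 7.06, 6.60 and 6.61 on the adult arrays and 6.92, 6.58 and 6.63 on the aged arrays. All adult and aged arrays lay below every fetal and adolescent array. Adamts8 fell by 1.23 ± 0.13 in adult against adolescent cells (2.34-fold, adjusted p = 0.000163) and fell by 1.61 ± 0.13 in adult against fetal cells (3.05-fold).

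Of the other proteoglycanases, Adamts4 had stage means of 7.17, 6.72, 6.37 and 6.62 from fetal to aged, and Adamts9 had 9.38, 9.49, 8.80 and 8.87. Adamts4 fell by 0.45 ± 0.09 in adolescent against fetal cells and fell by 0.35 ± 0.09 in adult against adolescent cells, a call lost without any single adolescent array or adult replicate 3 and in a fit of these stages alone. Adamts9 fell by 0.69 ± 0.18 in adult against adolescent cells (adjusted p = 0.0175), and all 6 of its probe sets had a negative difference there, between -1.25 and -0.34. The call was lost without adolescent replicate 1 or adult replicate 2 or 3 and in a fit of these stages alone. Adamts20, which is known in mouse for its part in pigment cell development, had stage means of 7.66, 8.64, 8.10 and 7.89 and rose by 0.98 ± 0.18 in adolescent against fetal cells (adjusted p = 0.00157). Adamts15 passed no test.

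Adamts6 and Adamts10 are closely related enzymes that act on fibrillin microfibrils, and their levels moved in opposite directions. Adamts6 stood at 6.68, 6.46 and 6.53 on the fetal arrays, 5.44, 5.59 and 5.62 on the adolescent arrays, 5.35, 5.28 and 5.32 on the adult arrays and 5.15, 5.48 and 5.45 on the aged arrays, above 6 on the fetal arrays alone. Adamts10 stood at 8.75, 8.77 and 8.71 on the fetal arrays, 9.63, 9.74 and 9.76 on the adolescent arrays, 10.01, 10.23 and 10.24 on the adult arrays and 9.82, 10.16 and 10.11 on the aged arrays, with the fetal arrays lowest. In adolescent against fetal cells Adamts6 fell by 1.01 ± 0.11 (adjusted p = 2.43e-05) and Adamts10 rose by 0.97 ± 0.11 (adjusted p = 3.53e-05). In adult against fetal cells Adamts6 fell by 1.24 ± 0.11 (at least 1.60-fold, adjusted p = 2.09e-06, with no adult array above the receptor level) and Adamts10 rose by 1.42 ± 0.11 (2.67-fold), and Adamts10 also rose by 0.45 ± 0.11 in adult against adolescent cells (adjusted p = 0.0136), a call lost without adolescent replicate 1 or adult replicate 2 or 3. Adamts14, a procollagen N-propeptidase, stood at 8.46, 8.55 and 8.62 on the fetal arrays, 8.13, 7.23 and 7.36 on the adolescent arrays, 7.48, 6.81 and 6.69 on the adult arrays and 6.62, 6.45 and 6.46 on the aged arrays. The first replicate was higher than the others in both the adolescent and the adult group, and the fetal arrays lay above all others. Adamts14 fell by 0.97 ± 0.23 in adolescent against fetal cells (adjusted p = 0.00905) and fell by 1.55 ± 0.23 in adult against fetal cells (2.93-fold). The other procollagen enzyme, Adamts3, had 16 probe sets. The brightest rose by 0.39 ± 0.15 in adult against fetal cells (adjusted p = 0.0468), but the adult and fetal arrays overlapped and the mean of its probe sets did not pass. Adamts7, which cuts cartilage oligomeric matrix protein, had stage means of 7.64, 7.63, 7.22 and 6.85 and fell by 0.41 ± 0.10 in adult against adolescent cells, a call lost without adolescent replicate 3 or adult replicate 3, after repeated quantile normalization and in a fit of these stages alone. Adamts12 and Adamts17 passed no test on their brightest probe sets, while a dimmer probe set of Adamts17 had a difference of -0.79 in adult against adolescent cells (adjusted p = 0.0124) where the brightest had 0.02.

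**Figure D2:**
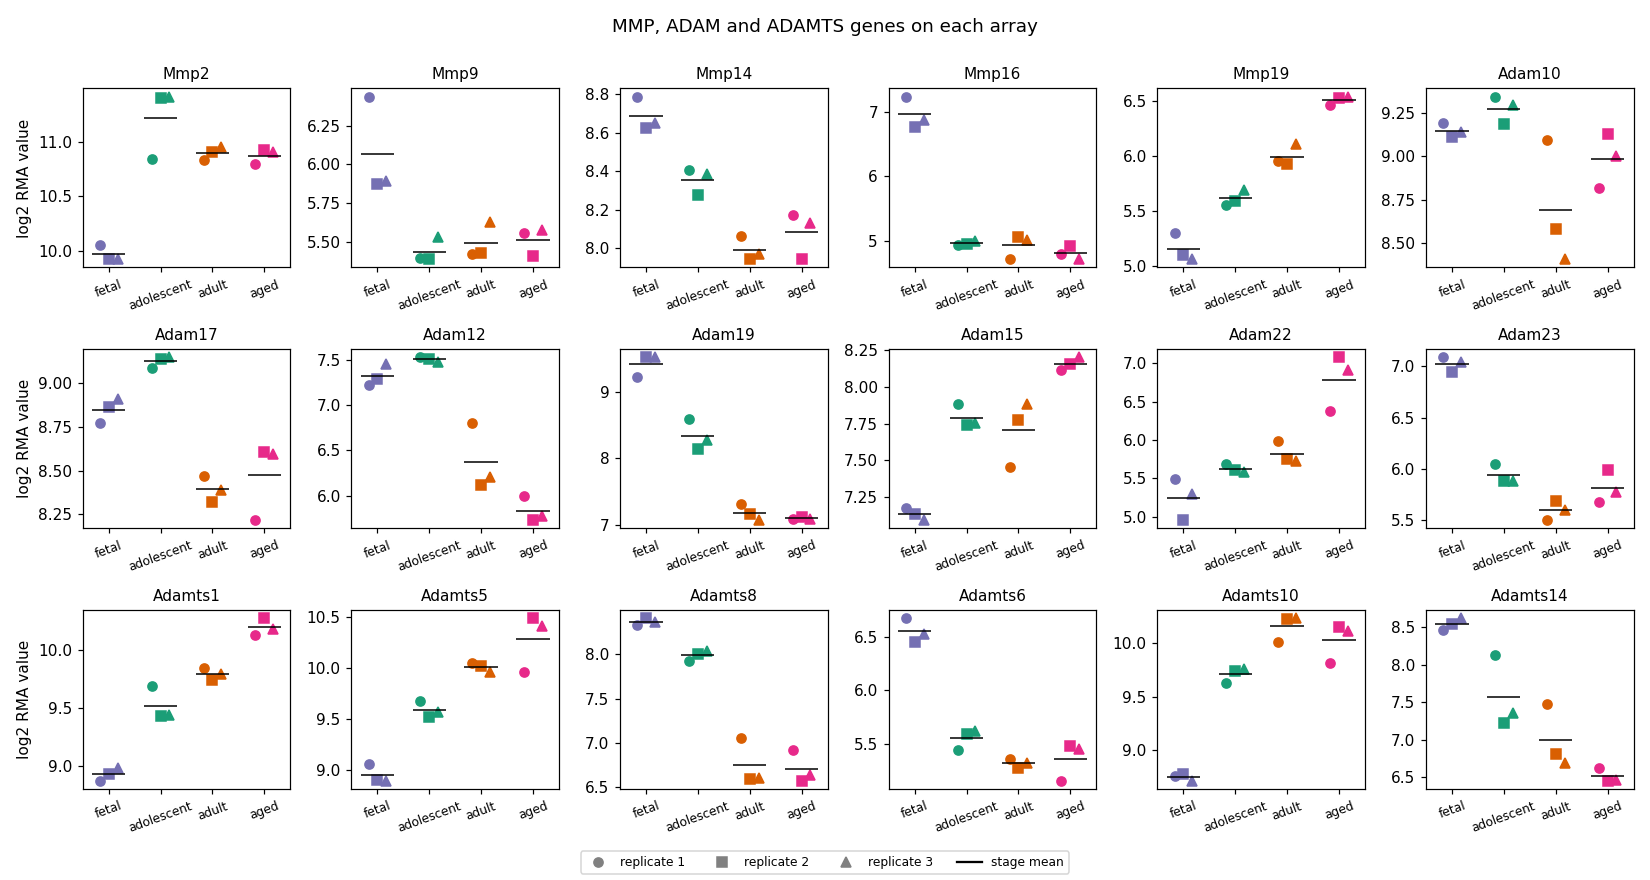
Log2 RMA values of 18 MMP, ADAM and ADAMTS genes on each of the 12 arrays by stage, with 1 symbol per replicate, a line at each stage mean and a separate vertical scale in each panel. Mmp16 and Adamts6 are high on the fetal arrays only, Adam19 and Adamts8 are lowest on the adult and aged arrays, and Mmp19, Adamts1 and Adam22 are highest on the aged arrays.

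In adolescent against fetal cells the inhibitors Timp2, Timp3 and Timp4 and the enzymes Mmp2, Adamts1, Adamts5, Adamts10 and Adam15 were among the rises, and Timp1, Mmp16, Adam19, Adam23, Adamts6 and Adamts14 among the falls. Of the 78 members 22 passed, 11 higher and 11 lower, while 18.8% of all genes passed, 10.1% higher and 8.68% lower. By family these were 6 of 22 MMPs, 4 of 4 TIMPs, 7 of 18 ADAMTS genes and 5 of 34 ADAMs. The median difference over the members was 0.03, and 0.02 over all genes. A call with a fitted change of at least 2-fold was seen in 7 of the 78 members and in 991 of all 19938 genes. Groups did not overlap in 35 members, 18 higher and 17 lower, against groups that did not overlap in 41.6% of all genes. Counts were 18 to 21 with the fit repeated without any single array of these stages, and 12 when replicates 2 and 3 were first averaged within every stage, so that each stage had 2 values. Mast cell markers stood higher in fetal cells, with a summed level of 10.48 to 10.78 on the fetal arrays, 8.68 to 8.79 on the adolescent arrays, 8.40 to 8.71 on the adult arrays and 8.73 to 8.87 on the aged arrays. Of these 10 markers 1 rose and 7 fell, 4 were dim, and their part in the protease values was not tested. Myofibre genes rose in 7 of 16 and fell in 1, with a summed level of 11.67 to 12.81 on the fetal arrays, 12.83 to 13.29 on the adolescent arrays, 12.07 to 12.51 on the adult arrays and 12.12 to 12.26 on the aged arrays, a part not tested either.

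The falls in adult against adolescent cells included the sheddases Adam9, Adam10 and Adam17, the meltrins Adam12 and Adam19, the proteoglycanases Adamts4, Adamts8 and Adamts9, Mmp14, and the inhibitors Timp3 and Timp4. The rises were Mmp19, Adamts5, Adamts10 and Adam4. In all 17 of 78 members passed, 4 higher and 13 lower, where 19.8% of all genes passed, 4.56% higher and 15.2% lower. Groups did not overlap in 33 members, 15 higher and 18 lower, against 36.0% of all genes. Of these members, 6 of the higher and 2 of the lower were dim. The median difference was 0.13 over the members and 0.03 over all genes. It was 0.19 over the dim members, -0.16 over the other members and -0.16 over all genes that were not dim. After median centring of the arrays the calls divided into 1 higher and 14 lower, and the rises of Mmp19, Adamts5 and Adam4 were lost. Shares of all genes with arrays left out are not given here, so the counts that follow cannot be read as particular to the members. The count depended on single arrays: it was 46 without adult replicate 1, 9 without adolescent replicate 1 or 3 or adult replicate 2, and 6 without adult replicate 3. Without adult replicate 1 all 17 calls were kept, and the split was 30 higher, 22 of them dim, and 16 lower. It was 8 without adult replicates 2 and 3 and aged replicate 1. Whichever array was left out, Adam9, Adam12, Adam17, Adam19, Adamts8 and Timp4 passed, and Adam19 and Adamts8 passed in every alternative run. In the same comparison 14 of 14 cell cycle genes fell, none of them dim, with a summed level of 13.95 to 14.24 on the fetal arrays, 13.49 to 13.62 on the adolescent arrays, 9.97 to 12.07 on the adult arrays and 9.66 to 10.69 on the aged arrays, and their part in the falls was not tested. Of the myofibre genes given above 8 fell and 0 rose.

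In aged against adult cells Timp3, Timp4, Adam22, Mmp19, Adam15 and Adamts1 rose. These 6 of 78 members passed, 6 higher and 0 lower, and 3.50% of all genes passed, 3.28% higher and 0.216% lower. At an unadjusted p under 0.05 limma counted 9 members higher and 10 lower. Shares of all genes at unadjusted p are not given here, so the 3.50% does not serve for such counts. Timp3 and Timp4 passed with a fitted change of at least 2-fold, as did 155 of all 19938 genes. After repeated quantile normalization 5 members were higher and 1 lower, and the calls of Adam15 and Adamts1 were lost. The call of Adamts1 was lost after median centring as well. The median difference was -0.10 over the members and -0.01 over all genes. It was -0.18 over the dim members, 0.06 over the other members and 0.10 over all genes that were not dim. For each of the 6 genes every aged array lay above every adult array, which adds no support because they were called on these same arrays. Groups did not overlap in 19 members, 10 higher and 9 lower, against 16.0% of all genes. Of these members, 1 of the higher and 6 of the lower were dim. As above, the counts with arrays left out have no share of all genes beside them and cannot be read as particular to the members. The count was 33 without adult replicate 1, of which 10 were higher and 23 lower, and 18 of those 23 were dim. It was 3 without adult replicate 2, 13 without aged replicate 1, 2 without aged replicate 2 or 3, and 11 without adult replicates 2 and 3 and aged replicate 1. Timp3 and Timp4 were the members that stayed in each of these, and with replicates 2 and 3 averaged 0 members passed (8 at an unadjusted p under 0.05 in limma).

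Set against fetal cells directly, adult cells had lower levels of Adam19, Timp1, Mmp16, Adamts8, Adamts14, Adam23 and Adamts6 by over 1 log2 unit, and higher levels of Timp4, Adamts10, Timp2 and Adamts5. Of the 78 members 31 passed, 14 higher and 17 lower, and 42.5% of all genes passed, 19.1% higher and 23.4% lower. A call with a fitted change of at least 2-fold was seen in 11 of the 78 members and in 2067 of all 19938 genes. The median difference was 0.15 over the members and 0.09 over all genes. It was 0.23 over the dim members, -0.07 over the other members and -0.13 over all genes that were not dim. Groups did not overlap in 33 members, 15 higher and 18 lower, against 47.9% of all genes. Of these members, 5 of the higher and 1 of the lower were dim. After median centring of the arrays the calls divided into 10 higher and 20 lower. The count was 50 without adult replicate 1, with 33 higher, of which 23 were dim, and 18 with replicates 2 and 3 averaged. Shares of all genes in these runs are not given here, so these counts cannot be read as particular to the members. Leaving out 1 array ended the calls of Adam10, Adam22, Adamts3, Adamts9 and Mmp11, and of some dim members. Of the 14 rises, Adam3, Adam5, Adam34 and Mmp7 were dim. Over the 4 stages together, 32 of 78 members differed by the F-test (41.0%), as did 41.6% of all genes. Without adult replicate 1 it called 57 members, and the share of all genes in that run is not given here. By family these 32 were 4 of 4 TIMPs, 7 of 22 MMPs, 10 of 18 ADAMTS genes and 11 of 34 ADAMs. The comparisons share arrays, the adult ones serving in 3 of them, and no overlap between them is given as a result.

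**Figure D3:**
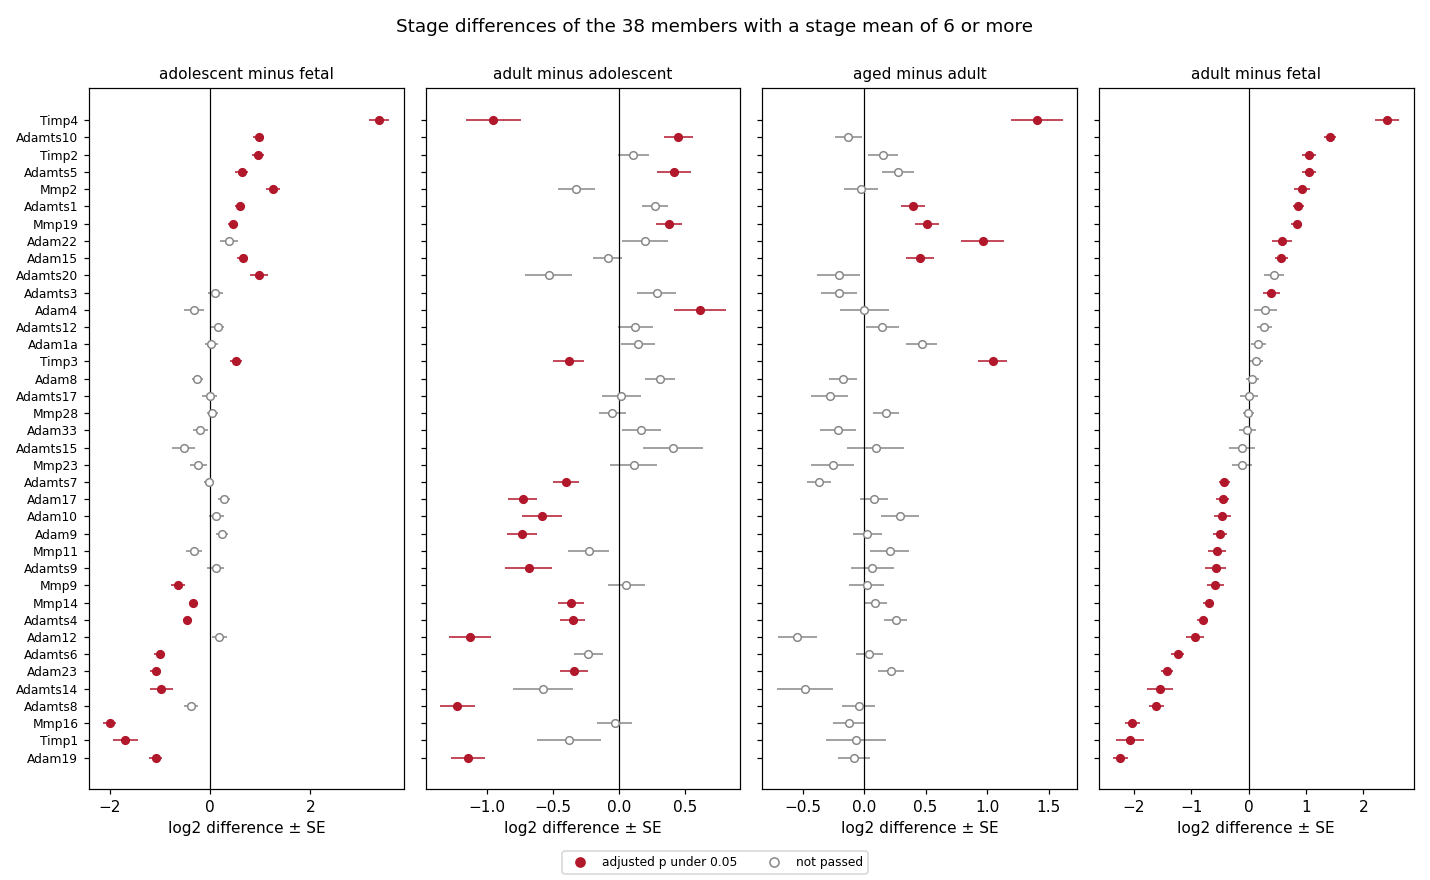
Log2 differences with their standard errors for the 38 members with a stage mean of 6 or more, in adolescent minus fetal, adult minus adolescent, aged minus adult and adult minus fetal cells, ordered by the last and with a separate horizontal scale in each panel. Filled points passed at an adjusted p under 0.05; Timp4 is the top point at 3.37 in the first panel and 2.42 in the last, and the aged minus adult panel has 6 filled points, all right of 0.

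Genes linked to these enzymes were read from lists of activators, protease inhibitors, partners and substrates. Of each list up to 4 genes with the smallest F-test p are named. For reading their counts, the share of all genes that passed was 18.8% for adolescent cells set against fetal ones, 19.8% for adult set against adolescent ones and 3.50% for aged set against adult ones. These shares serve for counts at adjusted p only. Of 12 measured activators of proteases and zymogens, 3 rose and 3 fell in adolescent against fetal cells. All 3 that fell are also among the mast cell markers given above, and all but Mcpt4 were dim. Plau, the urokinase plasminogen activator, rose by 2.30 ± 0.11, Plat, the tissue plasminogen activator, rose by 1.10 ± 0.11, and Furin, a convertase that removes propeptides of membrane-type MMPs and ADAMs, rose by 0.50 ± 0.10. The mast cell protease Mcpt4 fell by 1.27 ± 0.24 (at least 2.10-fold, with no adolescent array above the receptor level). In adult against adolescent cells 0 rose and 1 passed as lower, Plau, which fell by 0.48 ± 0.11, and in aged against adult cells 0 passed in limma (4 at an unadjusted p under 0.05). The inhibitors other than TIMPs were protease inhibitors in general, and not all of them act on metalloproteases. Of 13 measured, 4 rose and 2 fell in adolescent against fetal cells. In adult against adolescent cells 3 rose and 0 fell, and in aged against adult cells 3 rose and 0 fell. Serping1, the C1 inhibitor, rose by 2.24 ± 0.10 in adolescent against fetal cells, and Col18a1, the collagen that releases endostatin, fell by 1.40 ± 0.13. Spock3, a testican proteoglycan, had stage means of 4.62, 5.19, 6.35 and 8.24 from fetal to aged and rose by 1.89 ± 0.23 in aged against adult cells, with 1 of the 3 adult arrays above the receptor level. Spock1, another testican, rose by 0.97 ± 0.12 in the same comparison.

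Of 16 measured ADAM partners, 4 rose and 4 fell in adolescent against fetal cells and 3 rose and 4 fell in adult against adolescent cells. Rhbdf2, an iRhom needed for the maturation of ADAM17, rose by 0.70 ± 0.10 in the earlier step and rose by 0.57 ± 0.10 in the later one, where Adam17 itself fell. The tetraspanins Tspan5, Tspan15 and Tspan17 associate with ADAM10. Tspan15 rose by 1.63 ± 0.13 and Tspan17 rose by 1.53 ± 0.12 in adolescent against fetal cells, whereas Tspan5 fell by 0.93 ± 0.12 in adult against adolescent cells. In aged against adult cells 0 of the 16 passed in limma (2 at an unadjusted p under 0.05). Of 18 ADAMTS-like and other metalloprotease genes, 4 rose and 2 fell in adolescent against fetal cells. Among these, Tll2, a tolloid-like protease, fell by 1.52 ± 0.12, Adamtsl4, a microfibril-associated protein with no protease domain, rose by 1.16 ± 0.12 and Ece1, the endothelin-converting enzyme, rose by 0.74 ± 0.10. Adamtsl1 rose by 0.76 ± 0.17 in aged against adult cells, the single one of the 18 to pass there.

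Of 34 known substrates, 9 rose and 11 fell in adolescent against fetal cells, 4 rose and 9 fell in adult against adolescent cells, and 2 rose and 0 fell in aged against adult cells. Vcan, the versican cut by ADAMTS proteoglycanases, had stage means of 11.26, 7.24, 5.77 and 6.09 from fetal to aged. It fell by 4.01 ± 0.17 in adolescent against fetal cells and fell by 1.47 ± 0.17 in adult against adolescent cells, with 1 of the 3 adult arrays above the receptor level. Among the proteoglycanases, Adamts1 and Adamts5 rose and Adamts4, Adamts8 and Adamts9 fell in adult against fetal cells. Col1a2, a chain of type I collagen and also one of the fibroblast markers, fell by 1.11 ± 0.13 and fell by 1.42 ± 0.13 in those steps. The 14 fibroblast markers, of which Tcf21 was dim, had a summed level of 12.59 to 13.22 on the fetal arrays, 12.77 to 12.96 on the adolescent arrays, 12.63 to 12.70 on the adult arrays and 12.83 to 12.89 on the aged arrays. Of them 3 rose and 5 fell in adolescent against fetal cells, 0 rose and 5 fell in adult against adolescent cells, and 4 rose and 7 fell in adult against fetal cells. Their part in these values was not tested. Sdc4, a shed heparan sulphate proteoglycan and also one of the satellite cell markers, rose by 2.19 ± 0.13 in adolescent against fetal cells. Cx3cl1, a membrane-bound chemokine released by ADAM10 and ADAM17, had stage means of 5.91, 6.38, 7.10 and 7.89 and rose by 0.79 ± 0.11 in aged against adult cells.

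The 40 dim members were 14 MMPs, 4 ADAMTS genes and 22 ADAMs. Their stage means lay between 2.51 and 5.84. They include the collagenases Mmp1a, Mmp1b, Mmp8 and Mmp13, the stromelysins Mmp3 and Mmp10, the matrilysin Mmp7 and the macrophage elastase Mmp12, all from the chromosome 9 cluster, whose 10 genes had stage means between 2.89 and 5.44. Of 14 ADAM genes on chromosome 8, 13 were dim and Adam9 was not. Many of these are known from testis in mouse, and some are close copies, such as Adam26a and Adam26b, that an array may not tell apart. Of the 40 dim members 32 were on no array above the receptor level, whereas 29 of the other 38 members were above it on all 12 arrays. The mean of the dim members was 4.59 and 4.63 on adult replicates 2 and 3 and 4.48 on aged replicate 1, against 4.23 to 4.35 on the other arrays. The highest stage mean was the adult one in 37 of 78 members, but in 4 of the 38 that were not dim. The dim members Adam30, Mmp8 and Adam5 passed in adolescent against fetal cells, but Mmp8 and Adam5 were above the receptor level on 0 of the 12 arrays and Adam30 on 4, and each of these calls was lost without fetal replicate 3 or adolescent replicate 1.

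**Figure D4:**
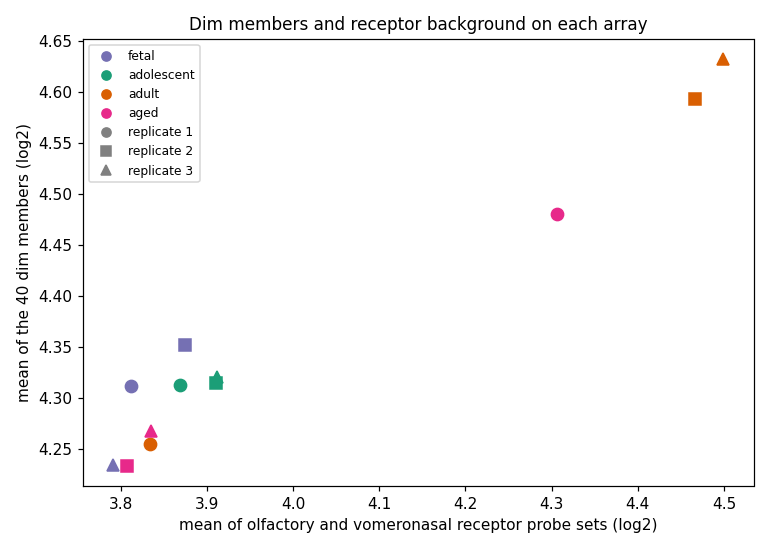
Mean log2 value of the 40 dim members (vertical) against the mean of 1210 olfactory and vomeronasal receptor probe sets (horizontal), with 1 point per array, colours for stages and symbols for replicates. Adult replicates 2 and 3 and aged replicate 1 lie apart at receptor means of 4.31 to 4.50, and the other arrays lie at 3.79 to 3.91.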

How the data were processed

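RNA of sorted cells, 3 samples per stage, was amplified and hybridised to single-colour Affymetrix arrays, per the labels' protocols. The deposited values are log2 intensities made with the RMA method of Affymetrix Expression Console, version 1.2.1.20, per the submitters' processing notes, and were used without further transformation; the array's genome build is not given in the sources used here. Of 35556 probe sets 21789 carried 1 symbol, 1621 several and 12146 none, which gave 19938 genes; the 78 members had 102 probe sets, and 2 probe sets naming a member among several symbols were left out. All 12 arrays were fitted with a mean per stage in limma 3.58.1 (R 4.3.3, 8 residual degrees of freedom), and p-values were Benjamini-Hochberg adjusted over all genes at 0.05. The method was tested on simulated data first.

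Values on each array are given for members that were not dim and whose stage means spanned at least 1, and for 12 chosen genes. Members and lists were chosen with earlier results of these data known, so no list was tested; 224 of 232 list names were measured. The departures from the stage mean of adolescent and adult arrays with the same number correlated at 0.362, 0.317 and 0.239. Those of adult and aged arrays correlated at -0.435, -0.393 and -0.237. No label states a pairing. In every stage replicates 2 and 3 lay closer to each other than to replicate 1, for example at r = 0.999 in adolescent and 0.996 in adult cells. Such correlations can therefore not show a pairing. The fit reported was unpaired, and replicate number entered only as an alternative. Alternatives were repeated quantile normalization, median centring, leaving out dim genes, averaging all probe sets of a gene, trended and robust variances, a fit of the 2 stages compared, replicate number as a block, and leaving out each array; the omission of 3 arrays with high background and the averaging of replicates 2 and 3 were chosen after seeing the data. Protein sequence features were not analysed here.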

Additional observations from a re-analysis of the deposited data

How the results depend on the processing

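The 56 calls of members given by array were recomputed under each alternative, and 712 recomputed values kept direction and call while 111 kept direction only. All 56 calls had passed in the reported fit, so kept calls were favoured in advance, and calls of other members are outside this tally. In adolescent against fetal cells 22 members passed, and 12 when replicates 2 and 3 were first averaged within every stage. In adult against adolescent cells 17 passed, 9 in a fit of the 2 stages alone, 8 without adult replicates 2 and 3 and aged replicate 1, 2 with averaged replicates, and 6 to 46 with single arrays left out. In aged against adult cells 6 passed, 2 in the fit of the 2 stages, 11 without those 3 arrays, 0 with averaged replicates (8 at an unadjusted p under 0.05 in limma), and 2 to 33 with single arrays left out. In adult against fetal cells 31 passed, 18 with averaged replicates, and 25 to 50 with single arrays left out. The F-test called 32 members, and 28 to 57 with single arrays left out. With replicate number as a block the counts were 23, 15, 4 and 28 in the order above and 32 for the F-test, and the calls of Adam15 and Adamts1 in aged against adult cells were lost (adjusted p = 0.0826 and 0.0851). This block covered all 4 stages, though no label states a pairing. Departures from the stage mean of adult and aged arrays with the same number correlated at -0.435 to -0.237. With averaged replicates the fit has fewer arrays. Why the other settings moved the counts was not tested. Shares of all genes under the alternatives are not given here, so these moves cannot be read as particular to the members. Depth is given here by signal over background, and dim members allow no statement about absence.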
